A study of Mus musculus with 6 samples.

Results

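Blood cells of the red and platelet lineages are specified by a small set of transcription factors that bind DNA together, and 10 of their genes are described here: Gata1, Gata2, Klf1, Tal1, Zfpm1, Lmo2, Ldb1, Nfe2, Gfi1b and Bcl11a. The members were all probe sets on the array annotated to exactly 1 of these symbols, which gave 10 of 18194 named genes and 18 of 45101 probe sets. Bcl11a had 7 of them, Gata2 and Zfpm1 had 2 each, and the other genes had 1 each. Their RNA levels were compared between progenitor cells with and without active Notch2.

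RNA was measured on Affymetrix arrays. The cells were sorted from mouse bone marrow as carrying cKit and lacking lineage markers and Sca1, a gate that holds the precursors of red cells, platelets, granulocytes and macrophages. ICN2-positive mice carried Rosa-lsl-ICN2 and Mx1-cre, and ICN2-negative mice were littermates with Mx1-cre alone, so that every animal had the recombinase. ICN2 is the intracellular domain of Notch2, an always active form of the receptor, and Mx1-cre removes the stop cassette before it in cells that respond to interferon, blood cells and others alike. All mice were 6 weeks old and received 3 injections of polyIC, an inducer of interferon, at 20 mcg per g of body weight every other day. Cells were taken 1 week after the last injection. Each group had 3 arrays. The labels give all ICN2-positive samples as male and all ICN2-negative samples as female, which means that sex and genotype cannot be told apart, and Gata1 lies on the X chromosome. Nothing in the labels says that the replicates of a group came from different animals, so the spread behind each p-value may be no more than technical.

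Gata1 drives red cell and platelet precursors, and Gata2 acts before it in stem cells, early progenitors and mast cells. On DNA the GATA factors sit in a complex with Tal1, its adaptor Lmo2 and the bridging protein Ldb1, while Zfpm1 binds GATA proteins directly. Klf1 switches on late red cell genes, Nfe2 late platelet genes, Gfi1b represses in both lineages, and Bcl11a silences embryonic globin genes in red cells and is needed for B cells. Notch domains released from the membrane act through the DNA-binding protein RBPJ.

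The start-site regions of 5 of the genes are shown because their brightest probe sets were all highest on the same array, and Bcl11a held the only member that passed the test. For Tal1 the first of its start sites is shown. Each sequence runs 5′ to 3′ from 250 bases before to 50 bases after a RefSeq start site (GRCm38.p6), on the strand of the gene, which is minus for Gata1 and plus for the others. The spans are chrX:7967861-7968160 for Gata1, chr11:24080445-24080744 for Bcl11a, chr8:84901732-84902031 for Klf1, chr4:115056176-115056475 for Tal1 and chr8:122281891-122282190 for Zfpm1. Capitals mark matches, on either strand, to the GATA letters AGATAA and their variant AGATAG, to the same letters that begin with T instead (TGATAA and its variant TGATAG), or to the RBPJ core letters TGGGAA.
Bcl11a: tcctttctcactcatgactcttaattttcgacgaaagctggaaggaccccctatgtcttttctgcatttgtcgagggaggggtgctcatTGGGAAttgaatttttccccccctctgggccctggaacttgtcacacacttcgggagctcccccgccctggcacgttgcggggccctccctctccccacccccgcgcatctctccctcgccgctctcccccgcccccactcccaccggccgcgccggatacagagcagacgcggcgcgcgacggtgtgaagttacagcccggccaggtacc
Gata1: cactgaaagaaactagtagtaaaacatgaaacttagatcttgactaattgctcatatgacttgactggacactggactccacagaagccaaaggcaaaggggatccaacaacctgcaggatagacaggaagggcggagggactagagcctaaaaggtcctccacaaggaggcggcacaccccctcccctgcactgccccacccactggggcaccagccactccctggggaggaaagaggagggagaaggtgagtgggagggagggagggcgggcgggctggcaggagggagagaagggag
Klf1: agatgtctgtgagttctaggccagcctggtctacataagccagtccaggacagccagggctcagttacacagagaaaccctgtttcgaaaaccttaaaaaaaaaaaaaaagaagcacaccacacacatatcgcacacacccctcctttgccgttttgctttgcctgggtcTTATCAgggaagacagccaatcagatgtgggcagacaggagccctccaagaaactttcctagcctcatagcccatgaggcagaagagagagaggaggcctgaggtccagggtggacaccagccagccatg
Tal1: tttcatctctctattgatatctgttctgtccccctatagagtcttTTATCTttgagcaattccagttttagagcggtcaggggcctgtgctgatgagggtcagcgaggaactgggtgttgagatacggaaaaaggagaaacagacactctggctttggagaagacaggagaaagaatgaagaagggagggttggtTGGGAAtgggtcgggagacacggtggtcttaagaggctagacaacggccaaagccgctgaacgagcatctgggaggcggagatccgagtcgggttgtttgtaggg
Zfpm1: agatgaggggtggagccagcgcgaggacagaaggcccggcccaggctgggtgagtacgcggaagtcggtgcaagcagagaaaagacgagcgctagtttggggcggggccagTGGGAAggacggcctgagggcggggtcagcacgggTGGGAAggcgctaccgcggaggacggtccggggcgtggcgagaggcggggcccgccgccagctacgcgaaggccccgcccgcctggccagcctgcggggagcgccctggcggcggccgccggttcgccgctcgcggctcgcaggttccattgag
Bcl11a had 1 RBPJ match, whose first base lay at position -161 from the start site. The Gata1 window held neither. Klf1 had 1 GATA match at -80, on the opposite strand. In the Tal1 window a GATA match stood at -205, also on the opposite strand, and an RBPJ match at -55. Zfpm1 had RBPJ matches at -139 and -104. RefSeq windows were read for 8 of the 10 genes, all but Lmo2 and Nfe2, 12 windows in all because Gata2, Tal1 and Ldb1 had several starts. GATA letters occurred in 4 of the 12 windows (33.3%; Gfi1b, Klf1, Ldb1 and Tal1), against 29.8% of 32851 mouse promoter windows of the same length. RBPJ letters likewise occurred in 4 of 12 windows (33.3%; Bcl11a, Ldb1, Tal1 and Zfpm1), against 25.6% of all windows. A match is a description of the letters and not a bound site.

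Of the 18 probe sets, 1 rose in ICN2-positive cells, a Bcl11a probe set, and none fell, while 17 did not pass the test. The test was limma on log2 intensity over the 27424 probe sets bright enough to be tested. At an adjusted p under 0.05 (Benjamini-Hochberg) it called 2.65% of them in either direction and 1.67% higher. All 18 members lay above the 40th percentile of every array. At an unadjusted p under 0.05 there were 5 of 18 members (27.8%), close to the 24.3% of all tested probe sets. The differences between groups were small, from -0.27 to 0.52 on the log2 scale with a median of 0.27, against a median of 0.03 over all tested probe sets. Bcl11a gave 7 of the 18 values, and with only the brightest probe set of each gene the median was 0.20. With the sign left aside, the median size of the difference was 0.27 for the 18 members and 0.18 for all tested probe sets. Differences larger than 0.5 were seen for 1 of 18 members (5.56%) and for 16.7% of all tested probe sets. For 17 of 18 members the 95% interval lay between -1 and 1, that is within a doubling or halving, and for 6 of them between -0.5 and 0.5. Arrays of the groups did not overlap for 8 members that were higher and 1 that was lower in ICN2-positive cells, 50% of members against 33.7% of all tested probe sets (19.7% higher and 14% lower). Since 4 of the 8 read Bcl11a and 2 read the same Zfpm1 source sequence, these 9 stand for 5 genes.

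ICN2-positive replicate 1 stood apart from the other arrays. Over all tested probe sets its correlation with replicates 2 and 3 of its own group was 0.966 and 0.974, where that of replicates 2 and 3 was 0.991. The ICN2-negative arrays correlated with each other at 0.989 to 0.991. The median log2 intensity of all probe sets, tested or not, was 6.05 to 6.09 on the 6 arrays. On this array 12 of 18 members (66.7%) had their highest value of the 6, against 33.1% of all tested probe sets. Among the 12 were all 7 Bcl11a probe sets and 2 of Zfpm1, so they stand for 5 genes. Differences computed without it are given for each gene below. Sums of marker genes differed between arrays and groups too. The summed linear intensity of 7 granulocyte-monocyte progenitor markers was 10957 in ICN2-positive replicate 1, 60469 and 54854 in replicates 2 and 3, and 76698 to 84508 in ICN2-negative arrays. None of their 9 probe sets passed the test, and all 9 were lower on every ICN2-positive array, against 14% of all tested probe sets. The sum of mast cell and basophil markers was 5524 in ICN2-positive replicate 1, 29794 and 22963 in replicates 2 and 3, and 13983 to 17535 in ICN2-negative arrays, with Tpsab1 below the 40th percentile on all arrays. Of the 13 mast cell and basophil probe sets tested, 4 rose (Mcpt1, Mcpt2, Mcpt4 and Il4). Groups did not overlap for 5 of the 13 that were higher and 0 that were lower, where all tested probe sets gave 19.7% higher and 14% lower. The median difference of the 13 was 0.08, and 0.92 without ICN2-positive replicate 1. Fcer1a differed by -1.35, Cpa3 by -0.32 and Hdc by -1.49 and -1.43, none past the test. Without ICN2-positive replicate 1 these differences were 0.31, 0.34, -0.35 and -0.21. Erythroid marker sums were 21392 to 26726 in ICN2-positive and 24069 to 26435 in ICN2-negative arrays. That list holds Klf1, a member, and without it the sums were 14933 to 18188 in ICN2-positive and 17473 to 20428 in ICN2-negative arrays. Car1 is the brightest of its genes, and Slc4a1 in the same list differed by -2.67 on the log2 scale. Hba-a1 was below the 40th percentile on all arrays. Of the adult globin genes outside the list, Hba-a2 read 11.16 to 11.63 in ICN2-positive and 11.58 to 11.85 in ICN2-negative cells. Hbb-b2 read 11.54 to 12.25 in ICN2-positive and 12.47 to 12.60 in ICN2-negative cells on its brighter probe set. Its 2 probe sets differed by -0.64 and -0.61 (adjusted p = 0.119 and 0.122 by limma), each lower on every ICN2-positive array. Macrophage markers summed to 1102 to 1466 in ICN2-positive and 2822 to 2917 in ICN2-negative arrays, and 3 of 9 tested probe sets fell, all of Vcam1. The other 6 did not pass and went in different directions. Adgre1 differed by -2.03, Cd68 by -1.59 and C1qa by -0.11, while C1qb differed by 0.88, 0.90 and 0.91 on its probe sets. NK cell markers summed to 14108 to 24038 in ICN2-positive and 11706 to 13338 in ICN2-negative arrays. Of 5 tested probe sets 2 rose, those of the granule proteases Gzma and Gzmb, and 3 did not pass. Gzma read 10.22 to 12.59 in ICN2-positive and 5.36 to 6.14 in ICN2-negative cells. Gzmb read 12.14 to 12.58 in ICN2-positive and 6.90 to 7.88 in ICN2-negative cells. The higher sum rests on these 2 genes and does not by itself show a rise of the other NK cell markers. Of the 5 probe sets 3 were higher on every ICN2-positive array, Gzma and Gzmb among them, against 19.7% of all tested probe sets. The median difference of the 5 was 0.705. B cell markers summed to 657 to 1802 in ICN2-positive and 2278 to 9557 in ICN2-negative arrays. None of 6 tested probe sets passed the limma test, and Pax5 was below the 40th percentile on all arrays. An unadjusted p under 0.05 was reached by 3 of the 6, against 24.3% of all tested probe sets. Whether the mix of cells had a part in the value of any member, Bcl11a included, or of the red cell genes below was not tested. In sorted bulk cells, fewer cells of a type and less RNA per cell cannot be told apart.

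The labels were checked on the arrays. Of the targeted gene, the dimmer Notch2 probe set had log2 intensities of 7.29, 7.35 and 7.52 in ICN2-positive cells, against 6.49, 6.62 and 6.52 in ICN2-negative cells (adjusted p = 0.0158 by limma). The brighter one read 12.94 to 13.06 in ICN2-positive and 12.92 to 12.96 in ICN2-negative cells (adjusted p = 0.571). Xist, the RNA of the silenced X chromosome, read 3.33 to 3.82 in ICN2-positive and 11.19 to 11.65 in ICN2-negative cells, as the labelled sexes have it. The sort receptor Kit read 10.15 to 10.86 in ICN2-positive and 10.38 to 10.50 in ICN2-negative cells on its brighter probe set, and Ly6a, which encodes Sca1, was not analysed here.

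**Figure D1:**
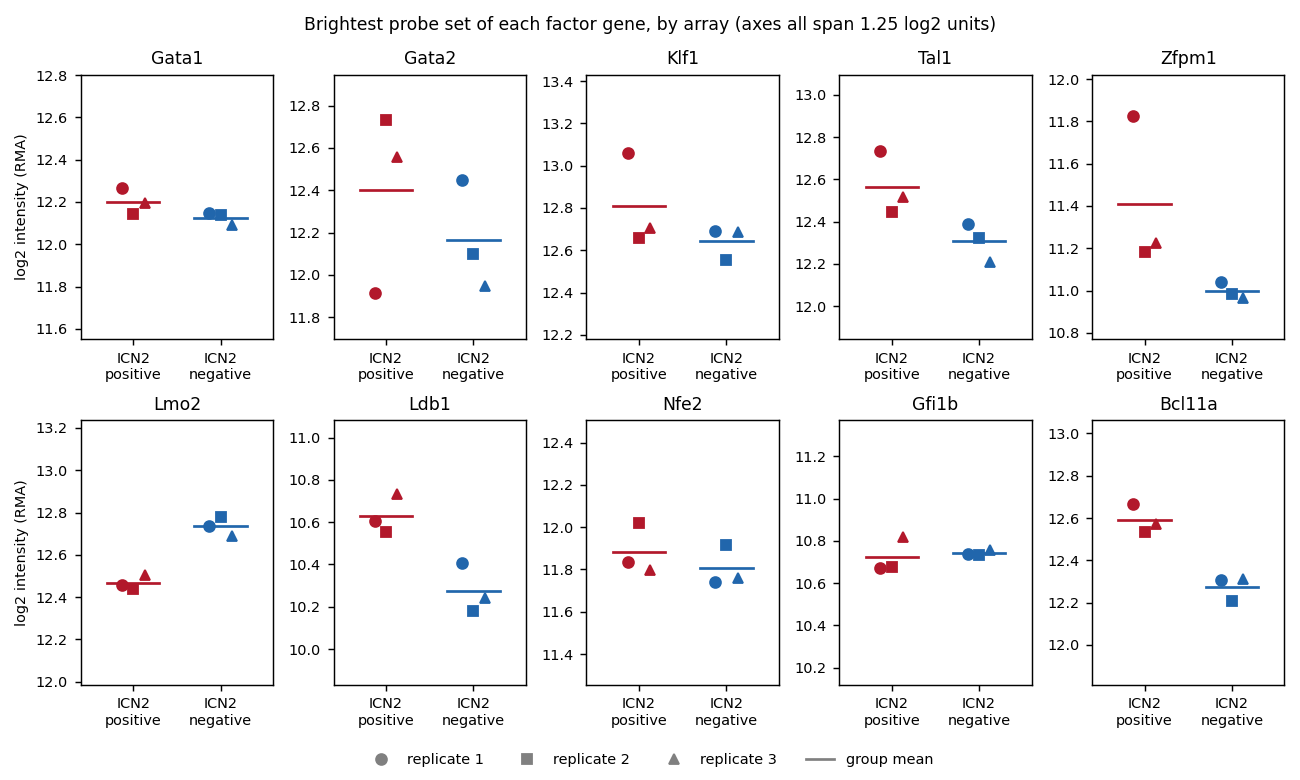
Log2 intensity (vertical axis) of the brightest probe set of each of the 10 genes on the 6 arrays, with ICN2-positive arrays left of ICN2-negative ones, group means as lines and replicate 1 of each group as a circle. Gata1, Klf1, Tal1, Zfpm1 and Bcl11a had their highest value on ICN2-positive replicate 1, and Gata2 and Gfi1b their lowest.

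Gata1, the central red cell and platelet factor, did not pass the test, and its interval left room for a rise of at most 1.19-fold. Its probe set read 12.27, 12.14 and 12.19 in ICN2-positive replicates 1 to 3, against 12.15, 12.14 and 12.09 in ICN2-negative replicates 1 to 3. The groups overlapped. The difference was 0.08 ± 0.07 (SE, n = 3 per group; 95% interval -0.10 to 0.25; adjusted p = 0.555 by limma), and 0.04 without ICN2-positive replicate 1. As a ratio the difference is 1.05, with an interval of 0.933 to 1.19.

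Gata2, the earlier GATA factor, spread most among the members. Its brighter probe set read 11.91, 12.73 and 12.56 in ICN2-positive replicates, against 12.45, 12.10 and 11.95 in ICN2-negative replicates. ICN2-positive replicate 1 was thus the lowest of the 6 arrays and the other two of its group were the highest. The difference was 0.24 ± 0.25 (95% interval -0.38 to 0.85; adjusted p = 0.603 by limma), and 0.48 without ICN2-positive replicate 1. The dimmer probe set differed by 0.37 ± 0.37 (95% interval -0.55 to 1.29; adjusted p = 0.584 by limma), and by 0.73 without that array. It was the member whose interval reached past a doubling. The mast cell and basophil marker sum was also lowest on ICN2-positive replicate 1 and highest on replicates 2 and 3, and its part in the Gata2 level was not tested.

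Tal1, the basic helix-loop-helix partner of the GATA factors, lay higher on every ICN2-positive array without passing the test. Its probe set read 12.73, 12.45 and 12.52 in ICN2-positive cells, against 12.39, 12.32 and 12.21 in ICN2-negative cells. The difference was 0.26 ± 0.10 (adjusted p = 0.206 by limma), and 0.17 without ICN2-positive replicate 1. As a ratio that is 1.20, with a 95% interval of 1.00 to 1.43.

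The adaptors of the complex differed in opposite directions, and neither passed the test. Lmo2, which joins Tal1 to the GATA factor, read 12.46, 12.44 and 12.51 in ICN2-positive cells, against 12.74, 12.78 and 12.69 in ICN2-negative cells. It was the only member with every ICN2-positive array below every ICN2-negative one, with a difference of -0.27 ± 0.07 (95% interval -0.44 to -0.10; adjusted p = 0.101 by limma). Ldb1, which bridges distant complexes, read 10.61, 10.55 and 10.73 in ICN2-positive cells, against 10.41, 10.18 and 10.24 in ICN2-negative cells. Every ICN2-positive array was the higher one, with a difference of 0.36 ± 0.10 (95% interval 0.12 to 0.59; adjusted p = 0.107 by limma). Without ICN2-positive replicate 1 these differences were -0.26 and 0.37. Lmo2 and Ldb1 thus kept their size without the array that stood apart.

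Zfpm1, the GATA cofactor also called Fog1, was highest on the array that stood apart. Its brighter probe set read 11.83, 11.18 and 11.23 in ICN2-positive cells, against 11.04, 10.98 and 10.97 in ICN2-negative cells. The groups did not overlap, but the difference of 0.41 ± 0.18 (adjusted p = 0.239 by limma) was 0.21 without ICN2-positive replicate 1. The other probe set, designed from the same source sequence, differed by 0.46 ± 0.19 (adjusted p = 0.207 by limma) and by 0.25 without that array.

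Klf1, the activator of late red cell genes, read 13.06, 12.66 and 12.71 in ICN2-positive cells, against 12.69, 12.55 and 12.69 in ICN2-negative cells. The groups overlapped, and only ICN2-positive replicate 1 stood above the rest. The difference of 0.16 ± 0.13 (95% interval -0.15 to 0.48; adjusted p = 0.482 by limma) was 0.04 without that array.

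Nfe2, the large subunit of a dimer that drives late platelet genes, read 11.84, 12.02 and 11.80 in ICN2-positive cells, against 11.74, 11.92 and 11.76 in ICN2-negative cells. The groups overlapped, with a difference of 0.08 ± 0.10 (95% interval -0.16 to 0.32; adjusted p = 0.655 by limma), and 0.10 without ICN2-positive replicate 1. Gfi1b, the zinc finger repressor, read 10.67, 10.68 and 10.82 in ICN2-positive cells, against 10.74, 10.73 and 10.76 in ICN2-negative cells. All ICN2-negative values lay inside the ICN2-positive range, and the difference was -0.02 ± 0.08 (95% interval -0.21 to 0.17; adjusted p = 0.890 by limma). Without ICN2-positive replicate 1, its lowest array, the difference was 0.0044, so its sign turned.

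**Figure D2:**
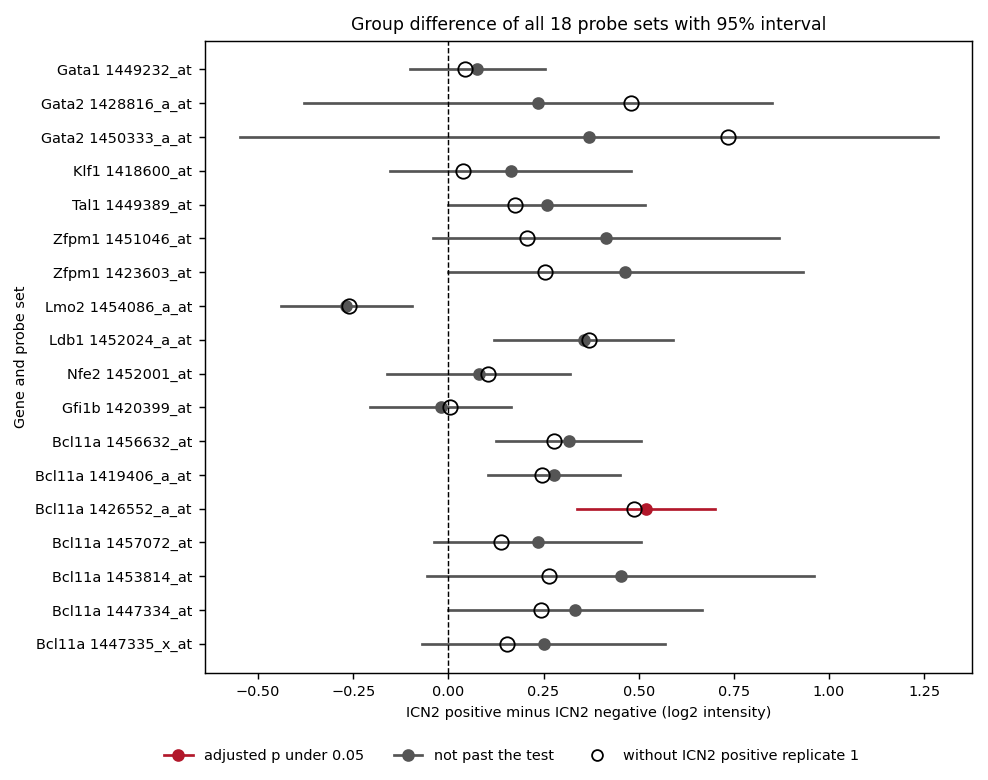
Difference in log2 intensity (horizontal axis, ICN2-positive minus ICN2-negative) of all 18 probe sets with its 95% interval, and as open circles the difference without ICN2-positive replicate 1. The Bcl11a probe set that passed the test stands at 0.52, Lmo2 stands below 0, and the Gata2 intervals are the widest.

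Bcl11a, the zinc finger repressor of embryonic globin genes, had the only probe set that rose, and the gene as a whole was not called. Read by its brightest probe set alone, in a fit with 1 probe set per gene, it had an adjusted p of 0.0689, and by the mean of its probe sets 0.105 (limma). The probe set that passed, 1426552_a_at, read 11.98, 11.94 and 11.83 in ICN2-positive cells, against 11.39, 11.42 and 11.39 in ICN2-negative cells. Its lowest ICN2-positive array lay above its highest ICN2-negative one, and the difference of 0.52 ± 0.07 (95% interval 0.34 to 0.70; adjusted p = 0.0314 by limma) is a 1.43-fold rise. Without ICN2-positive replicate 1 it was 0.49 with an adjusted p of 0.0485. Leaving out any other single array took the adjusted p to 0.0823 to 0.135, with differences of 0.51 to 0.56. After median centring the adjusted p was 0.0541.

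The other 6 Bcl11a probe sets did not pass but had higher means in ICN2-positive cells as well. The brightest, 1456632_at, read 12.67, 12.53 and 12.57 in ICN2-positive cells, against 12.31, 12.21 and 12.31 in ICN2-negative cells, a difference of 0.32 ± 0.08 (adjusted p = 0.0926 by limma). The next, 1419406_a_at, read 12.47, 12.35 and 12.40 in ICN2-positive cells, against 12.12, 12.12 and 12.14 in ICN2-negative cells, a difference of 0.28 ± 0.07 (adjusted p = 0.0973 by limma). Over all 7 the differences ran between 0.23 and 0.52, and 4 of 7 had groups that did not overlap. Without ICN2-positive replicate 1 the range was 0.14 to 0.49. The 2 brightest then differed by 0.28 and 0.25, while 1453814_at, 1457072_at and 1447335_x_at differed by 0.27, 0.14 and 0.15, against 0.45, 0.23 and 0.25 with all arrays. These probe sets read 1 gene and are not replicates, and 1447334_at and 1447335_x_at came from the same source sequence. Among the dimmest, 1453814_at read 8.71, 7.93 and 8.36 in ICN2-positive cells, against 8.01, 7.77 and 7.85 in ICN2-negative cells, so that its groups overlapped. Embryonic globin RNA, which Bcl11a is known to silence, was near the filter's limit: the one tested Hbb-bh1 probe set read 5.35 to 6.04 in ICN2-positive and 5.61 to 5.74 in ICN2-negative cells (adjusted p = 0.913 by limma), and no Hbb-y probe set passed the filter.

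**Figure D3:**
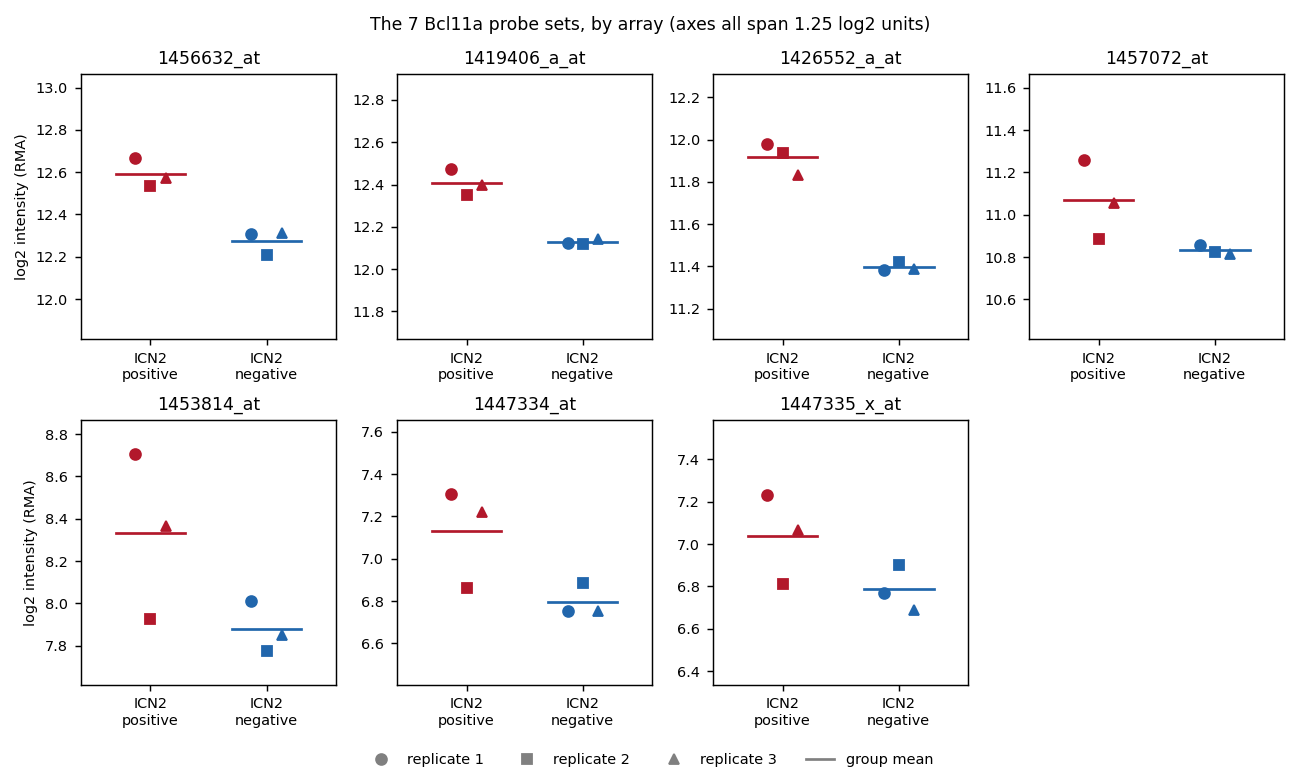
Log2 intensity (vertical axis) of the 7 Bcl11a probe sets on the 3 ICN2-positive and 3 ICN2-negative arrays, with group means as lines. Group means differ by 0.23 to 0.52 in the same direction, and the groups do not overlap for 4 of the 7.

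The genes the factors act on were read from the same fit. Of 34 tested probe sets in a list of red cell genes (22 genes), 5 fell (14.7%, against 0.988% of all tested probe sets called lower) and none rose. The list was chosen with earlier results of these data known, so this share describes the list and is not an independent test. The median difference was -0.15, and -0.25 without ICN2-positive replicate 1. Groups did not overlap for 12 probe sets that were lower and 1 that was higher in ICN2-positive cells. Among all tested probe sets groups did not overlap for 33.7%, with 14% lower and 19.7% higher. The 5 were Trim10, Sptb, E2f2, Epb42 and Cldn13. Trim10, a ring finger gene of late red cell precursors, read 7.50, 7.25 and 7.72 in ICN2-positive cells, against 9.02, 9.14 and 9.12 in ICN2-negative cells. Its difference of -1.60 ± 0.13 (adjusted p = 0.00867 by limma) was 3.04-fold lower in ICN2-positive cells.

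E2f2, a cell cycle factor of red cell precursors, read 8.23, 8.86 and 8.96 in ICN2-positive cells, against 10.18, 10.29 and 10.15 in ICN2-negative cells, 2.88-fold lower (adjusted p = 0.0280 by limma). Sptb, the beta chain of red cell spectrin, fell by 1.13 ± 0.12 on the log2 scale (adjusted p = 0.0149 by limma), but its dimmer probe set differed by -0.03. Epb42, protein 4.2 of the red cell membrane, fell by 1.94 ± 0.26 on one probe set (adjusted p = 0.0292 by limma) and read -0.17 on a dimmer one. Cldn13, a claudin of mouse red cell precursors, fell by 0.53 ± 0.09 (adjusted p = 0.0430 by limma). Leaving out a single array took the count of red cell probe sets that fell to between 0 and 5, with 0 when ICN2-negative replicate 2 or 3 was left out and 1 when ICN2-negative replicate 1 was. Leaving out ICN2-positive replicate 2 or 3 gave 2, and leaving out ICN2-positive replicate 1 gave 5. Trim10 passed in 4 of these 6 fits.

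Other red cell genes did not pass. Slc4a1, the anion exchanger band 3, read 9.85, 8.01 and 9.62 in ICN2-positive cells, against 11.34, 12.42 and 11.75 in ICN2-negative cells (adjusted p = 0.0722 by limma), and differed by 0.00 on its dimmest probe set. Car1, an early red cell carbonic anhydrase, differed by 0.13 ± 0.08, and Epor, the erythropoietin receptor, by 0.23 ± 0.17. Car1 was the 1 probe set of the list that was higher on every ICN2-positive array. Hemgn, a nuclear protein gene of blood precursors, differed by -0.54 ± 0.13 (adjusted p = 0.0944 by limma) and was lower on every ICN2-positive array. Slc4a1, Car1, Epor and Hemgn were named after their values were seen.

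None of 73 tested probe sets for partners of the factors passed the limma test, and their median difference was 0.01. There were 11 of the 73 at an unadjusted p under 0.05, against 24.3% of all tested probe sets. The smallest p-values belonged to Sox6, which acts with Bcl11a on globin genes. Its probe set 1447655_x_at read 7.19, 7.18 and 7.33 in ICN2-positive cells, against 7.98, 8.74 and 8.36 in ICN2-negative cells, a difference of -1.12 ± 0.20 (adjusted p = 0.0513 by limma). Another 2 Sox6 probe sets differed by -1.03 and -1.0 (adjusted p = 0.0640 and 0.0655 by limma), and the last by 0.23. With 1 array left out, the adjusted p of 1447655_x_at was 0.0413 without ICN2-negative replicate 1 and 0.0840 to 0.170 in the other 5 fits.

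Family relatives of the members gave 0 of 24 tested probe sets past the limma test. Before adjustment 7 of the 24 had a p under 0.05, against 24.3% of all tested probe sets. The median difference of the 24 was -0.36, and -0.18 without ICN2-positive replicate 1. Klf3, a repressor related to Klf1, differed by -0.66 ± 0.17 and -0.34 ± 0.09 on the 2 probe sets of smallest p (adjusted p = 0.0976 and 0.112 by limma). Klf13 differed by -0.53 ± 0.15 on its probe set of smallest p (adjusted p = 0.116 by limma). Its brightest probe set differed by -0.43 ± 0.12 (adjusted p = 0.119 by limma) and its dimmest by -0.07, with overlapping groups.

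Platelet lineage genes gave 0 of 21 tested probe sets past the limma test. Before adjustment 2 of the 21 had a p under 0.05, against 24.3% of all tested probe sets. The median difference of the 21 was -0.08, and 0.18 without ICN2-positive replicate 1, so its direction rested on that array. Rab27b, a small GTPase of platelet granules, read 6.49, 6.89 and 6.94 in ICN2-positive cells, against 6.32, 5.76 and 5.24 in ICN2-negative cells (adjusted p = 0.122 by limma). Every ICN2-positive array was the higher one, and a brighter Rab27b probe set, with overlapping groups, differed by 0.96 ± 0.45. Pf4, platelet factor 4, read 6.02, 9.24 and 7.93 in ICN2-positive cells, against 11.82, 10.91 and 9.28 in ICN2-negative cells (adjusted p = 0.153 by limma). Pf4 thus varied within each group by more than 2 on the log2 scale.

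Factors of the granulocyte and macrophage lineages, some of which oppose GATA factors, gave 0 of 7 tested probe sets past the limma test. An unadjusted p under 0.05 was reached by 4 of the 7, against 24.3% of all tested probe sets. The median difference of the 7 was -1.74, and -0.61 without ICN2-positive replicate 1. Irf8, a macrophage lineage factor, read 5.68, 8.88 and 8.61 in ICN2-positive cells, against 10.16, 10.68 and 10.55 in ICN2-negative cells (adjusted p = 0.137 by limma). The brighter Irf8 probe set differed by -3.15 ± 1.18 (adjusted p = 0.181 by limma). Gfi1, the close relative of Gfi1b and also among the family relatives above, read 5.95, 8.95 and 9.0 in ICN2-positive cells, against 10.74, 10.78 and 11.12 in ICN2-negative cells (adjusted p = 0.121 by limma). For both genes all ICN2-positive arrays were lower and replicate 1 was the lowest by far, where the granulocyte-monocyte progenitor sum was lowest too, and the part of that mix was not tested. Cebpb, a granulocyte factor, differed by -0.77 ± 0.20 (adjusted p = 0.0996 by limma) on its brighter probe set and by -0.02 on the other.

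**Figure D4:**
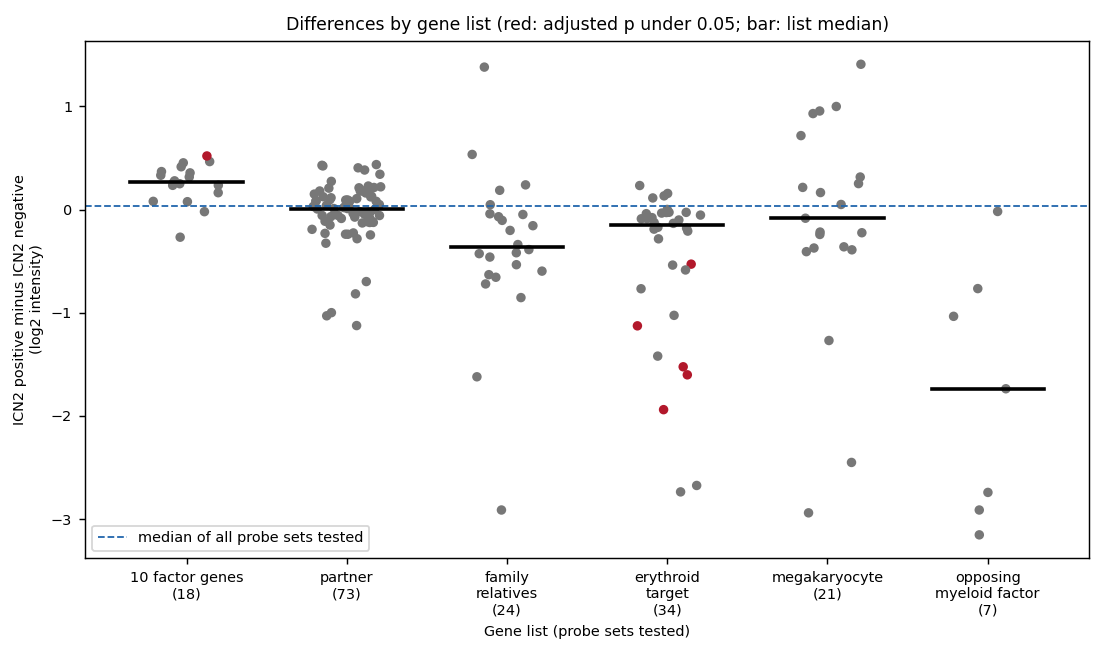
Difference in log2 intensity (ICN2-positive minus ICN2-negative) of every tested probe set of the members and of each gene list, with the list median as a bar and probe sets past the test in colour. The 18 members lie between -0.27 and 0.52, while the 5 probe sets that passed among red cell genes lie between -1.94 and -0.53.

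The genes whose level ran most like that of Gata1 over the 6 arrays were Grk6, Lias, Pak4, Maf and Mtss1, with Pearson correlations of 0.994, 0.991, 0.989, 0.988 and 0.988. These are descriptions over 6 arrays of 12836 genes compared, and 463 genes had a correlation above 0.9.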

How the data were processed

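Ovation amplification and biotin labelling started from 5 ng of total RNA, per the labels' protocols. The deposited intensity values were made by the authors with RMA, per the submitters' processing notes. They were linear, from 5.13 to 24679, and log2 was taken here. RMA makes the arrays' distributions alike, so a change in total RNA per cell would not be seen. Probe sets were named from the platform annotation where it gave 1 gene. Of 45101 probe sets, 64 array controls were left out, and 27424 were tested, those that exceeded the 40th percentile of intensity on 3 or more of the 6 arrays. Differences are ICN2-positive minus ICN2-negative, fitted without covariates by lmFit and eBayes of limma 3.58.1 (R 4.3.3), adjusted over all tested probe sets, with standard errors of that fit. The number of arrays limits the precision.

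Named genes were all members and, from each list, probe sets past the test or else the 3 of smallest p. Slc4a1, Car1, Epor, Hemgn, the marker genes, Kit, Hba-a2, Hbb-b2, Hbb-bh1 and Hbb-y and the other probe sets of a named gene were added after values were seen. Members and lists were chosen with earlier results of these data known. List genes with no probe set annotated to them alone were not analysed here. Alternatives covered filter, normalization, variance model, array weights, probe set choice, threshold, replicate number as a block and each array left out. The fit was tested on simulated data. Same-numbered arrays of the groups had correlations of their deviations of 0.183, 0.101 and 0.0945, so the numbers were not taken to pair the samples.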

Additional observations from a re-analysis of the deposited data

How the results depend on the processing

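Against 1 member called higher and 0 lower, the counts were 3 and 0 at an adjusted p of 0.1, 4 and 1 with array weights and 3 and 1 with an intensity trend in the variance. No member was called higher with 1 probe set per gene (brightest or mean), after median centring, with the replicate block, without x_at, s_at and a_at probe sets, or with a difference of at least 1 required. The member called, 1426552_a_at, is left out with the brightest probe set per gene and without a_at probe sets. It differed by 0.52, under the required 1. Under these settings its loss was fixed in advance. The Bcl11a probe set 1426552_a_at had an adjusted p of 0.0541 after median centring and 0.0801 with the replicate block. Over all tested probe sets, 457 higher and 271 lower became 1435 and 941 at an adjusted p of 0.1, 2285 and 1685 with array weights, 712 and 504 with the trend, 134 and 134 with the replicate block, and 229 higher with a difference of at least 1. Red cell calls, 5 in the report, were 11 at an adjusted p of 0.1, 9 with array weights, 10 with the trend and 1 with the block. Partner calls, 0 in the report, were 5, 7 and 3 under the first 3 of these and 1 with a filter at the 60th percentile. Platelet lineage calls, 0 in the report, were 1 with array weights. Leaving out 1 array gave 67 to 436 higher and 28 to 424 lower over all probe sets, 0 to 1 members higher, 0 to 2 partner, 0 to 5 red cell and 0 to 1 platelet lineage calls. The replicate number is only a shared number here, and a call lost under the block is not a weaker effect. The differences near 0 changed sign: Gfi1b was 0.046 with array weights and -0.069 to 0.0044 with an array left out, and Slc4a1 1431743_a_at was -0.013 after median centring and -0.065 to 0.066 with an array left out. Apart from the settings that could not call 1426552_a_at, the cause of these moves was not tested, beyond the smaller number of arrays or probe sets that some settings use. With no scanner files used here, signal over background is unknown.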
